A study of Mus musculus with 13 samples.

Results

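The Slit-Robo and semaphorin-plexin genes described here were 10 genes of axon guidance signaling: the ligand genes *Slit2* and *Slit3*, their receptors *Robo1* and *Robo2*, the receptor effectors *Srgap1* and *Srgap2*, the semaphorin genes *Sema3a* and *Sema3g*, and the plexin genes *Plxna1* and *Plxna2*. They were chosen by name, and all 10 were found among the 35967 gene symbols measured in mouse glomeruli. RNA came from glomeruli isolated by perfusion of the kidneys with magnetic beads, and each of the 13 libraries was 1 animal. All animals were wild-type male Balb/c mice that received a 2 mg intraperitoneal dose of rabbit IgG. The 5 control mice received preimmune IgG. The other mice received IgG against THSD7A, a podocyte membrane protein that is a target of autoantibodies in membranous nephropathy (MN), and were examined at day 1 (4 mice) or day 5 (4 mice). Controls from both days formed 1 group, and the day of each control mouse was not given, so a difference between the control days could not be separated from the rest of the spread. The model is a passive transfer of antibody made in rabbits.

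Slits are secreted proteins that bind Robo receptors, and the receptors act on the actin cytoskeleton through adaptors such as Nck and through the srGAP proteins, which switch off small GTPases and bend membranes. In the kidney, SLIT2 and ROBO2 are known for positioning the ureteric bud, and ROBO2 is found at the podocyte slit diaphragm, where it is linked to nephrin through Nck. Class 3 semaphorins are secreted ligands that act on plexin A receptors, most of them with a neuropilin as the binding partner. Podocytes make Sema3a and Sema3g, and excess Sema3a is known to harm the filtration barrier.

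The promoters of 3 of these genes are shown because *Robo2* and *Sema3g* had the highest levels and *Plxna2* held a searched motif. Each sequence is the 250 bases before a transcription start in RefSeq (promoter table of GRCm38.p6), placed on GRCm39 by an exact match and written 5′ to 3′ on the strand of the gene, with a motif in capitals where one was found. In *Plxna2* (chr1:194301887-194302136, plus strand) the capitals are the motif shared by EGR factors and WT1, 87 bases before the start. The *Robo2* promoter (chr16:75244182-75244431, minus strand, 1 of 3 listed starts) and the *Sema3g* promoter (chr14:30939580-30939829, plus strand) held none of the 3 motifs given here.
Robo2: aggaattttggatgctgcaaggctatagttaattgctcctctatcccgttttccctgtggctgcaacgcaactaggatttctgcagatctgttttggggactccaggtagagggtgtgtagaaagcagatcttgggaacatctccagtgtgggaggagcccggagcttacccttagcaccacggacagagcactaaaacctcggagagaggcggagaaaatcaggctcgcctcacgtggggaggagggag
Plxna2: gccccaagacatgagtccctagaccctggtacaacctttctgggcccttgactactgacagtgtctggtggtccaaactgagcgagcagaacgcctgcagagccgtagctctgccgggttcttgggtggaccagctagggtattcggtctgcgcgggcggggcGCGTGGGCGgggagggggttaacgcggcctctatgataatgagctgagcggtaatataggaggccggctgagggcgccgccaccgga
Sema3g: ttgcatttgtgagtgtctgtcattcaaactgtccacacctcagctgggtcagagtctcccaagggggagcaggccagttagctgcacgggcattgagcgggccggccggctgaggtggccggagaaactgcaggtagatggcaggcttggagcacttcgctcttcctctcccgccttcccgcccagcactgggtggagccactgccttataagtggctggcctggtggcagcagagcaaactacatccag
Promoters of 9 of the 10 genes were in the table (11 promoters), and *Plxna1* was not. Searched on both strands, the EGR and WT1 motif GCGTGGGCG was in 1 of the 11 promoters and in 0.536% of all 32851 promoters of this length. The AP-1 motif TGANTCA (6.75% of all promoters) and the LMX1B homeodomain motif TAATTA (4.84%) were in none of the 11. A match of letters is a description and not a binding site.

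The values are TPM, transcript abundances scaled to transcript length and to a fixed total per library, so levels of different genes can be compared. The depth of the libraries is unknown, because TPM hold no read counts. For tests, TPM were divided by a scaling factor for each library (median of ratios over genes), and log2(scaled TPM + 0.5) was fitted with limma for the 14322 genes that reached 1 TPM in 4 or more libraries. Fold changes are on that scale, which understates changes of low genes. A gene was called at an adjusted p under 0.05 (Benjamini-Hochberg over all genes tested) and a log2 fold change beyond ±0.5. The podocyte identity of the tissue was clear: the summed TPM of 10 podocyte markers was 8260 to 11086 in controls, 9139 to 11117 at day 1 and 10083 to 10772 at day 5, and none was at 0 in any library. Control 2 had the lowest podocyte sum of all libraries. The sum of 12 tubule markers was 427 to 1078 in controls, 839 to 1451 at day 1 and 612 to 769 at day 5. With the mean tubule marker level as a covariate, none of the 10 genes was called either, and day 1 log2 fold changes moved. They went from −0.20 to −0.54 for *Srgap1*, from −0.11 to −0.37 for *Sema3g* and from −0.24 to −0.40 for *Robo2*. With this covariate the limma adjusted p of these genes was at least 0.288. Tubule markers had higher estimates at day 1, so the covariate and the group cannot be fully separated in these values. The sum of 8 leukocyte markers was 26.3 to 56.0 over all 13 libraries. All 9 glomerular endothelial markers had day 5 estimates above 0 (median log2 fold change 0.21), and none was called. All 5 parietal epithelial markers had day 1 estimates above 0 (median 0.71, none called), and 1 of them, *Cldn1*, was called higher at day 5. All 12 tubule markers also had day 1 estimates above 0 (median 0.73, none called). Whether the parietal estimates reflect tubule RNA was not tested. The part of these cell types in the results below was not tested. In whole glomeruli, fewer cells of a type and less RNA per cell cannot be told apart.

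The first question was whether anti-THSD7A IgG changed these genes. None of the 10 was called at day 1, where 0.0908% of all genes tested were called (13 genes), and none was called at day 5, where 3.21% were called (460 genes). In limma without adjustment, p was under 0.05 for 1 of 10 genes at day 1 (*Srgap2*), against 12.6% of all genes tested, and for 1 of 10 at day 5 (*Robo2*), against 20.1%. With only 10 genes, a count of 1 cannot be told apart from these background shares. The median log2 fold change of the 10 genes was −0.092 at day 1 and −0.077 at day 5, where the median over all genes tested was −0.0029 and −0.0032. At day 1, 3 of the 10 estimates were above 0 and 7 below, and at day 5, 4 were above and 6 below. A missed threshold does not show that a gene did not change, so the intervals matter. The 95% interval of the log2 fold change lay within ±0.5 for 7 genes at day 1 and 6 genes at day 5, and within ±1 for 9 genes on each day. The exception on both days was *Sema3a*. Both comparisons used the same 5 control libraries.

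**Figure D1:**
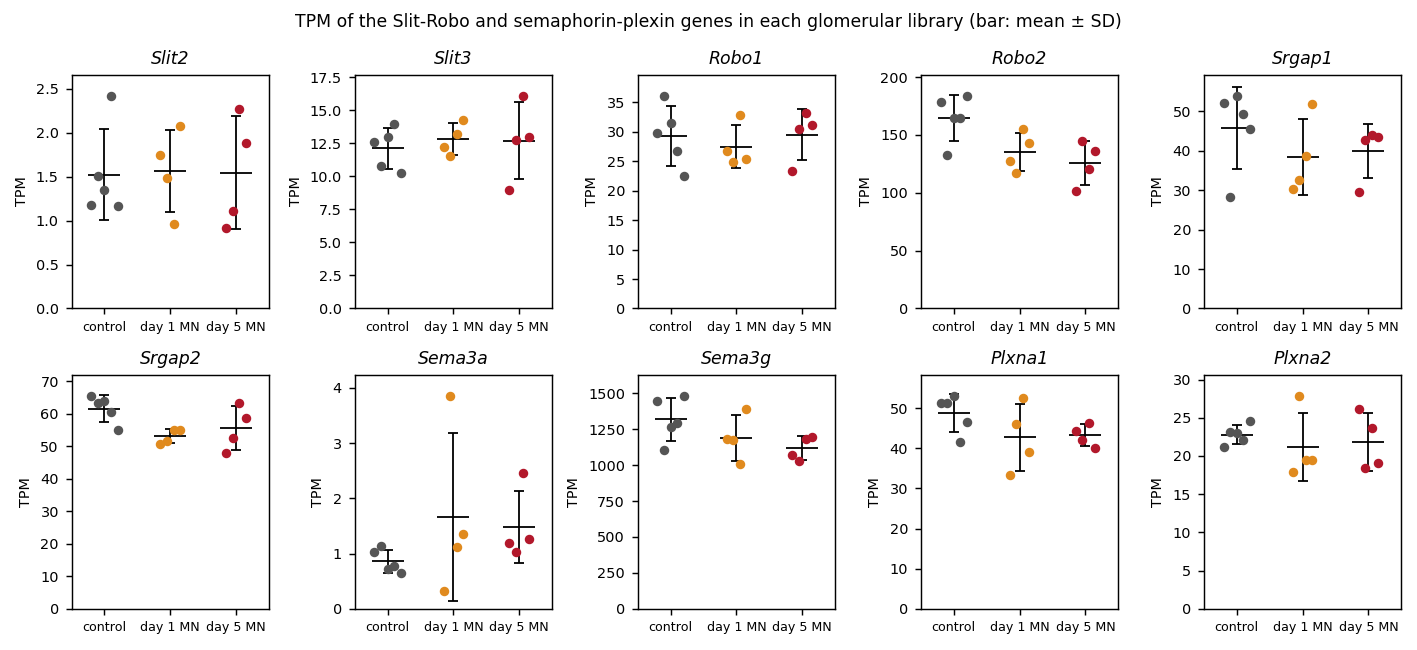
TPM (vertical axes, starting at 0) of each of the 10 genes in 5 control, 4 day 1 MN and 4 day 5 MN libraries. Each point is 1 mouse, and bars are the mean ± SD; the groups overlapped for all 10 genes on this scale, and the 4 highest *Robo2* values were controls.

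The levels spanned 3 orders of magnitude. *Sema3g* ranked number 74 among all symbols by mean TPM in controls, at 1319 ± 150.3 (SD, n = 5), and *Robo2* ranked 1012, at 165 ± 19.8. *Srgap2* followed at 61.6 ± 4.15, then *Plxna1* at 48.8 ± 4.64, *Srgap1* at 45.8 ± 10.4, *Robo1* at 29.3 ± 5.13, *Plxna2* at 22.8 ± 1.27 and *Slit3* at 12.1 ± 1.57. At the low end were *Slit2* at 1.52 ± 0.521 and *Sema3a* at 0.860 ± 0.210. Neighbors in this order whose control libraries overlapped were *Plxna1* and *Srgap1*, *Srgap1* and *Robo1*, and *Robo1* and *Plxna2*; other neighbors did not overlap. *Slit2* reached 1 TPM in 11 libraries and *Sema3a* in 9, and the other 8 genes did so in all 13.

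Among the ligands, *Slit3* was the main Slit gene of the glomerulus. Its TPM was 12.6, 10.8, 13, 14 and 10.2 in controls 1 to 5, 12.2, 11.5, 13.2 and 14.3 at day 1, and 8.98, 12.8, 16.1 and 13 at day 5. The lowest and the highest value were both at day 5, and the groups overlapped. Its log2 fold change was 0.13 (95% interval −0.16 to 0.41) at day 1 and 0.081 (−0.20 to 0.36) at day 5, with limma adjusted p = 0.730 and 0.801. *Slit2*, the ligand best known in kidney development, was close to the 1 TPM used as the filter. It was at 1.18, 1.51, 1.34, 2.42 and 1.17 TPM in controls, 1.75, 1.48, 0.963 and 2.07 at day 1, and 0.919, 1.11, 2.27 and 1.89 at day 5. Control 4 stood above the other controls, and each group covered nearly the same range. Its log2 fold change was 0.068 (−0.48 to 0.61) at day 1 and 0.018 (−0.53 to 0.56) at day 5, so these data leave room for a change of either sign.

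Of the receptors, *Robo2* had the lowest p of the 10 genes at day 5. Its TPM in controls 1 to 5 was 178, 133, 165, 165 and 184. At day 1 it was 127, 117, 155 and 143, and at day 5 it was 101, 145, 120.3 and 136. In 4 of 5 controls the level was above every anti-THSD7A library, and control 2, at 133, lay within both treated groups. The means were 165 ± 19.8 (SD, n = 5) in controls, 135 ± 16.6 (n = 4) at day 1 and 126 ± 19.2 (n = 4) at day 5. The estimated log2 fold change was −0.24 (95% interval −0.49 to 0.023) at day 1 and −0.36 (−0.62 to −0.10) at day 5, a level 22.1% lower by the estimate. By limma the day 5 p was 0.00989 and the adjusted p 0.102, so the difference was not called, and the day 1 adjusted p was 0.436. Over 26 alternative settings the day 5 value stayed between −0.44 and −0.28, and no setting brought it past the fold threshold. Without control 2, the library with the lowest podocyte sum, it was −0.44 with adjusted p = 0.0286, and without day 5 library 1, the lowest *Robo2* value, it was −0.28 with adjusted p = 0.273.

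*Robo1*, the second Robo receptor, did not share this pattern of values. It was at 29.8, 36.1, 31.6, 26.7 and 22.5 TPM in controls, 26.7, 25.0, 32.9 and 25.3 at day 1, and 23.3, 30.5, 33.1 and 31.1 at day 5. The control group held both the highest and the lowest library. By limma, the log2 fold change was −0.039 (−0.30 to 0.22) at day 1 and 0.048 (−0.21 to 0.31) at day 5, with adjusted p = 0.935 and 0.879. *Robo2* TPM was 3.68 to 8.17 times *Robo1* TPM in controls and 3.63 to 4.75 times at day 5, with 4 of 5 controls above all day 5 libraries. This ratio was not tested.

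The srGAP effectors had lower group means on both days, and neither was called. *Srgap2* was at 65.5, 63.3, 63.9, 60.4 and 54.9 TPM in controls, at 50.8, 51.7, 55.1 and 55.1 at day 1, and at 47.8, 52.6, 63.4 and 58.7 at day 5. At day 1 every library lay below 4 of the 5 controls, and the groups touched only at control 5. After scaling, the day 1 libraries (51.7 to 55.9) and the controls (56.1 to 64.0) did not overlap. *Srgap2* was the 1 gene of 10 in which this was so at day 1, against 3.5% of all genes tested, and none of the 10 was separated from controls at day 5, against 10.7%. In limma, *Srgap2* had a log2 fold change of −0.16 (95% interval −0.30 to −0.027) at day 1 and −0.12 (−0.25 to 0.020) at day 5. The limma adjusted p was 0.331 at day 1 and 0.336 at day 5.

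*Srgap1*, a paralog that is abundant in podocytes, varied more among controls. Its TPM was 52.0, 28.2, 54.0, 49.4 and 45.5 in controls, 30.3, 32.7, 38.6 and 51.9 at day 1, and 29.7, 42.7, 44.0 and 43.5 at day 5. Control 2 was the lowest of all 13 libraries, as it was in the podocyte marker sum. Estimates on the log2 scale were −0.20 (−0.63 to 0.22) at day 1 and −0.14 (−0.57 to 0.28) at day 5, with limma adjusted p = 0.709 and 0.766. The day 5 value was −0.027 without day 5 library 1 and −0.32 without control 2, so single libraries set its size.

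*Sema3g*, a class 3 semaphorin made by podocytes, was the most abundant gene of the set in every library. It was at 1446, 1107, 1268, 1294 and 1481 TPM in controls, at 1179, 1174, 1007 and 1393 at day 1, and at 1074, 1027, 1179.7 and 1195 at day 5. All 4 day 5 libraries lay below 4 of the 5 controls, with control 2 again among the treated values. The log2 fold change was −0.11 (95% interval −0.34 to 0.12) at day 1 and −0.20 (−0.43 to 0.031) at day 5, with limma adjusted p = 0.714 and 0.329. Leaving out 1 library, the day 1 value ran from −0.19 without day 1 library 4 to −0.021 without day 1 library 3. The lower bound at day 5 corresponds to a level 25.6% lower.

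*Sema3a*, the founding class 3 ligand, was low and variable. It was at 1.02, 1.14, 0.711, 0.769 and 0.656 TPM in controls, at 0.327, 3.85, 1.117 and 1.35 at day 1, and at 1.18, 1.02, 2.45 and 1.26 at day 5. The lowest and the highest library were both at day 1, while 3 of 4 day 5 libraries exceeded every control. Its log2 fold change was 0.46 (−0.36 to 1.28) at day 1 and 0.53 (−0.30 to 1.35) at day 5, with limma adjusted p = 0.651 and 0.498. Without day 1 library 2 the day 1 value was 0.030. *Sema3a* passed the filter on low TPM in 2 of 5 controls, 3 of 4 day 1 libraries and 4 of 4 day 5 libraries, so it was tested mainly through the treated groups.

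*Plxna1* and *Plxna2* encode plexin A receptors, and neither was called. *Plxna1* was at 51.2, 51.4, 53.0, 41.6 and 46.6 TPM in controls, at 33.4, 46.2, 52.5 and 39.0 at day 1, and at 44.3, 42.2, 46.4 and 40.0 at day 5. The day 5 libraries sat close together, in or just below the lower part of the control range. Its log2 fold change was −0.16 (−0.40 to 0.084) at day 1 and −0.13 (−0.38 to 0.11) at day 5, with limma adjusted p = 0.590 and 0.571. *Plxna2* was at 21.1, 23.1, 23.0, 22.1 and 24.5 TPM in controls, at 17.9, 27.8, 19.5 and 19.5 at day 1, and at 26.2, 18.4, 23.7 and 19.1 at day 5. The controls were close together, and treated libraries lay on both sides of them. Its log2 fold change was −0.077 (−0.37 to 0.22) at day 1 and −0.039 (−0.33 to 0.26) at day 5, with limma adjusted p = 0.863 and 0.919.

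**Figure D2:**
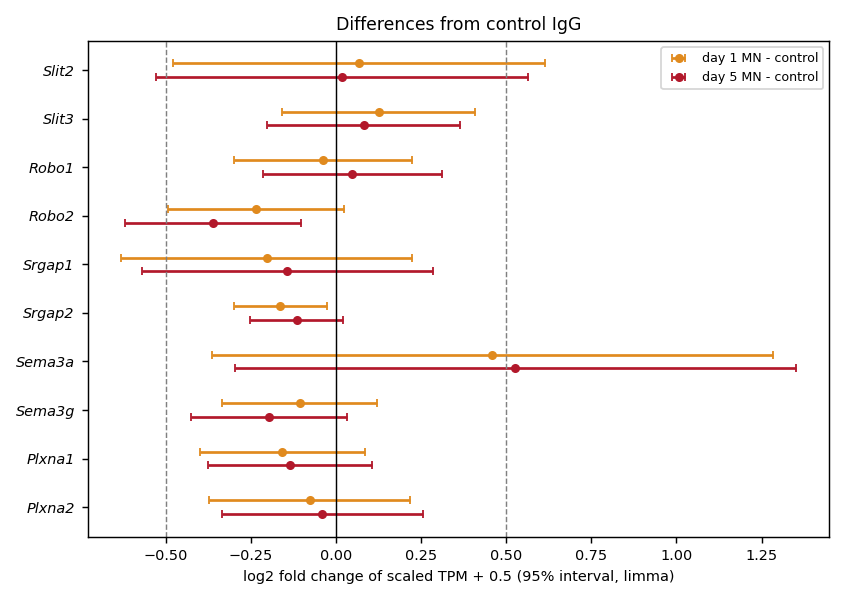
Log2 fold change of scaled TPM + 0.5 (horizontal axis) against control for each gene, day 1 MN in orange and day 5 MN in red. Points are limma estimates, bars are 95% intervals, and dashed lines mark the fold threshold of 0.5; the intervals that exclude 0 are those of *Srgap2* at day 1 and *Robo2* at day 5.

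The second question was whether day 5 differed from day 1, a comparison of means without the controls, which still entered the estimate of the spread. None of the 10 genes was called, against 1.81% of all genes tested (259 genes), and for none was limma's unadjusted p under 0.05, against 15.5%. Log2 fold changes ran from −0.12 for *Robo2* to 0.087 for *Robo1*, with limma adjusted p of 0.708 to 0.965. The intervals of all 10 genes lay within ±1 and those of 7 within ±0.5. For *Robo2* the interval was −0.40 to 0.15, so the error covers a level 24.1% lower as well as one 10.8% higher. All 12 tubule markers had estimates below 0 in this comparison (median −0.69), and *Aqp2* and *Calb1* were called lower. With the tubule marker covariate none of the 10 genes was called, and several estimates changed sign, as listed in the closing section.

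Levels were also set against the summed scaled TPM of the 10 podocyte markers in the same library. Relative to these markers, *Robo2* was at 15.99 ± 0.667 per 1000 (SD, n = 5) in controls and 12.0 ± 1.55 (n = 4) at day 5. All 5 controls (14.9 to 16.7) lay above all 4 day 5 libraries (10.03 to 13.5), and day 1 (12.5 to 16.4) reached into both. *Sema3g* was at 128 ± 8.16 per 1000 in controls (115 to 135) and 107 ± 8.68 at day 5 (95.4 to 114), again without overlap. These were 2 of the 10 genes, against 3.9% of all genes tested that were lower without overlap on this ratio. The other 8 genes overlapped between controls and day 5.

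The choice of markers set both the size and the direction of these differences. *Cdkn1c*, a cell cycle inhibitor of mature podocytes, was itself called higher at day 5 and rose from a mean TPM of 1245 to 1997. Without it, *Robo2* was at 17.0 to 19.0 per 1000 in controls and 12.3 to 17.0 at day 5. The highest day 5 library (17.0036) lay barely below the lowest control (17.0054), while *Sema3g* (131 to 153 and 120.5 to 141) overlapped. Against the 10 markers singly, the log2 difference of *Robo2* at day 5 ran from −1.08 to 0.095, below 0 for 8 and without overlap for 6. For *Sema3g* it ran from −0.92 to 0.26, below 0 for 7 and without overlap for 3. All genes were also scaled to the 10 markers, a setting added after the data were seen. There, *Robo2* at day 5 had a log2 fold change of −0.42 (95% interval −0.65 to −0.19) with limma adjusted p = 0.0456. This was still short of the fold threshold. The scaling moved genes in general: the day 5 median over all genes tested was −0.060, against −0.0032 in the main fit. The main fit value of *Robo2* was −0.36.

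**Figure D3:**
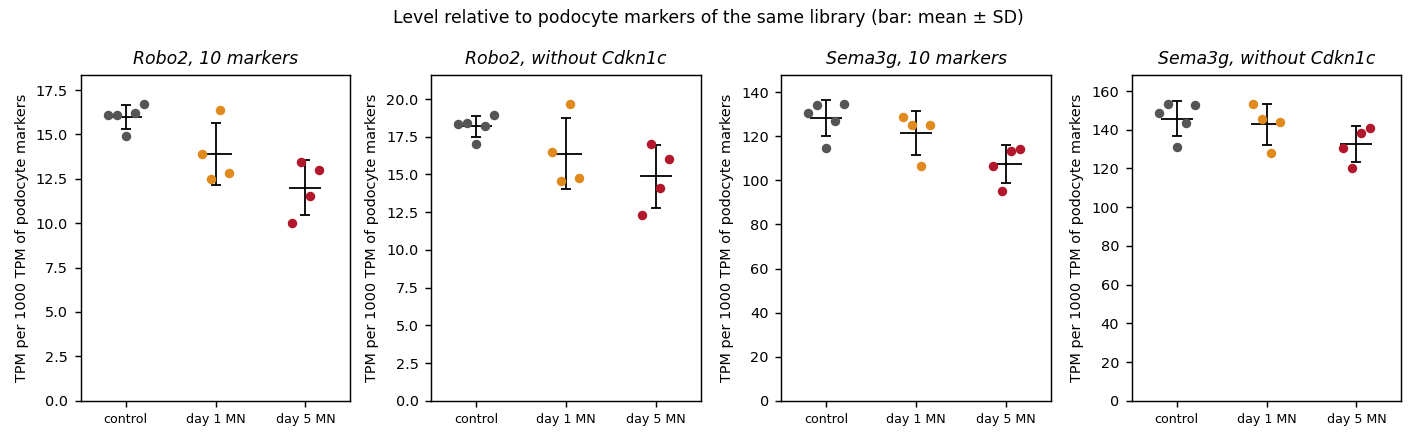
Scaled TPM of *Robo2* and *Sema3g* per 1000 scaled TPM of podocyte markers (vertical axes, starting at 0), with all 10 markers and without *Cdkn1c*. Points are single mice and bars the mean ± SD. *Robo2* at day 5 lay below controls with all 10 markers, and barely below the lowest control without *Cdkn1c*. *Sema3g* overlapped controls once *Cdkn1c* was left out.

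Within their families, the 10 genes held very different shares. *Robo2* made up 63.7% ± 5.51 (SD, n = 5) of the TPM of the 4 Robo genes in controls, 61.4% ± 3.49 (n = 4) at day 1 and 57.5% ± 3.30 at day 5. *Robo4*, the endothelial member, held 24.7% in controls, *Robo1* 11.4% and *Robo3* 0.167%. *Slit3* held 88.9% ± 2.49 of Slit TPM and *Slit2* 11.03%, and *Slit1* never exceeded 0.0314 TPM. *Srgap2* and *Srgap1* shared the srGAP TPM at 57.2% and 41.8%. The shares of *Slit2*, *Slit3*, *Srgap1* and *Srgap2* at day 5 were within 1 control SD of these.

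*Sema3g* alone was 62.1% ± 3.67 of the TPM of 20 semaphorin genes in controls and 56.0% ± 2.56 at day 5, and 79.0% ± 2.41 and 74.4% ± 1.96 of the 7 class 3 genes. *Sema3f* came next, with 12.5% of all semaphorin TPM in controls, and *Sema3a* held 0.0409%. The receptors were distributed otherwise. *Plxna1* and *Plxna2* held 9.35% and 4.39% of the TPM of 9 plexins in controls, while *Plxnd1* held 40.0%, *Plxnb2* 22.6% and *Plxnb1* 18.8%. *Nrp1* was 97.5% of neuropilin TPM. Differences in these shares between groups were not tested.

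**Figure D4:**
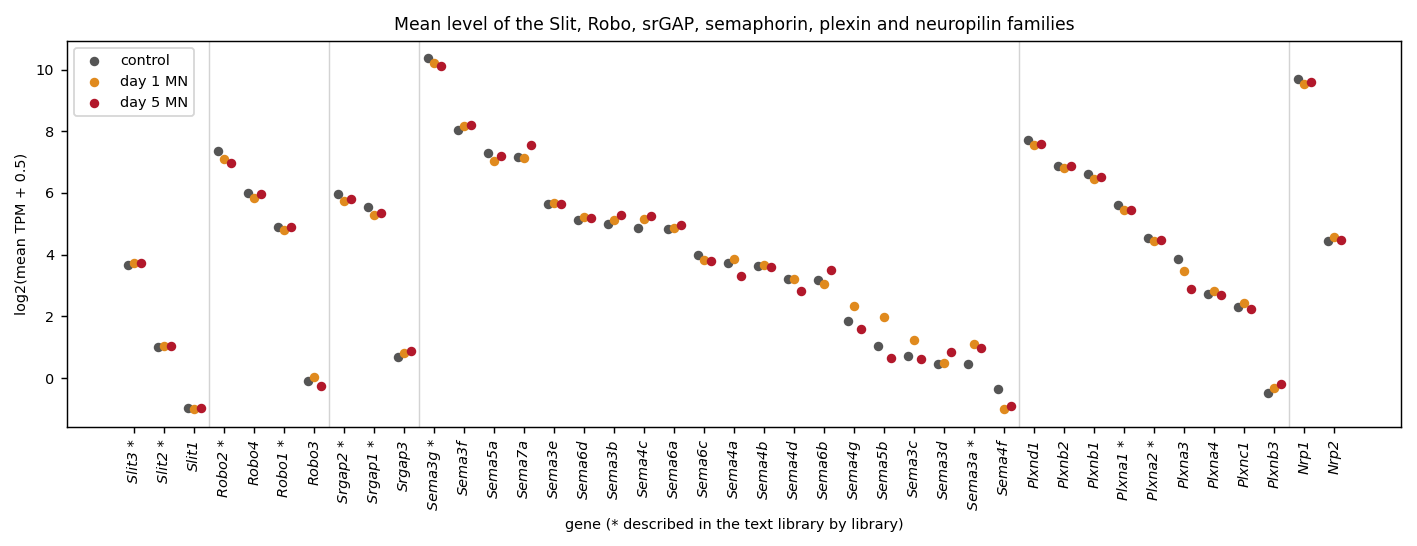
Log2(mean TPM + 0.5) of every listed Slit, Robo, srGAP, semaphorin, plexin and neuropilin gene in controls (grey), day 1 MN (orange) and day 5 MN (red), ordered within each family by the control level. Asterisks mark the 10 genes given by library in the text; *Sema3g* and *Robo2* top their families in all groups, and *Plxna3* shows the largest step down at day 5 among the plexins.

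The rest of the pathway was represented by 87 genes, of which 79 were tested. None was called at day 1, where limma gave 12 of the 79 an unadjusted p under 0.05, against 12.6% of all genes tested. At day 5, where 21 of the 79 had one, against 20.1%, 2 were called higher, against 2.42% of all genes tested, and 2 lower, against 0.789%. The median log2 fold change of the 79 genes was 0.0086 at day 5. None was called between day 5 and day 1, where 17 of the 79 had an unadjusted p under 0.05 in limma, against 15.5%.

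Among the 23 tested co-receptors and effectors of Slit-Robo signaling, *Nell2* and *Evl* were called higher and *Pak1* lower, and 20 were not called. In all, 7 of the 23 had a limma adjusted p under 0.05, and the 4 of these that were not called fell short of the fold threshold. Among these 4 was *Dag1*, the dystroglycan gene whose product binds Slits, at 0.46 with limma adjusted p = 0.00357 and also at 0.41 against day 1 with adjusted p = 0.0219. The others were *Rhoa* (0.27, limma adjusted p = 0.0136), *Cap1* (0.21, adjusted p = 0.0360) and *Vasp* (0.27, adjusted p = 0.0493). *Nell2*, which encodes a secreted ligand of ROBO3, was at 13.4, 11.5, 16.7, 15.3 and 18.7 TPM in controls and at 35.7, 27.4, 22.3 and 24.2 at day 5, without overlap. Its log2 fold change was 0.87 (SE 0.17) with limma adjusted p = 0.00743. *Pak1*, a kinase downstream of Rac1 and Cdc42, was at 201, 144, 187, 184 and 210 TPM in controls and at 103.6, 132, 124 and 128 at day 5, again without overlap, with a log2 fold change of −0.56 (SE 0.13) and adjusted p = 0.0178. *Evl*, an actin regulator of the Ena/VASP family, was at 40.8, 36.0, 29.8, 30.8 and 24.3 TPM in controls and 36.8, 40.7, 51.7 and 50.9 at day 5, which overlapped. *Evl* passed narrowly, with a log2 fold change of 0.51 (SE 0.12) and adjusted p = 0.0262. The next lowest gene in the list, *Cap2*, was at −0.39 with adjusted p = 0.406.

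*Plxna3*, a receptor related to *Plxna1* and *Plxna2*, was the 1 gene called among 8 other tested plexins and neuropilins. It was at 14.3, 13.5, 11.2, 16.1 and 15.7 TPM in controls, at 7.32, 10.1, 14.6 and 10.3 at day 1 and at 3.42, 6.63, 7.50 and 10.1 at day 5. Every day 5 library lay below every control, and the day 1 libraries overlapped both groups. The log2 fold change at day 5 was −1.03 (SE 0.24) with limma adjusted p = 0.0211. *Nrp2* (0.082), *Plxnb2* (0.026) and *Plxnd1* (−0.10) were the other extremes of this list and were not called. A test of whether *Plxna3* differed in its change from *Plxna1* or *Plxna2* was not made.

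Of these 4 calls, 3 were lost in some fits that left out 1 library. Without day 5 library 2, the estimates of *Evl* and *Plxna3* were larger in size than in the full fit (0.51 and −1.03). *Evl* lost its call without control 3 (log2 fold change 0.49), control 4 (0.50), control 5 (0.43) or day 5 library 2 (0.55), 3 (0.46) or 4 (0.46). *Plxna3* lost it without control 4 (−0.98) or day 5 library 1 (−0.77) or 2 (−1.05), with adjusted p of 0.0509 to 0.0570. *Pak1* lost it without day 5 library 1 (−0.51, adjusted p = 0.0686). *Nell2* kept its call without any 1 library.

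None of 17 other tested semaphorins was called at day 5. The highest were *Sema4c*, at 0.45 with limma adjusted p = 0.0342 and so short of the fold threshold, and *Sema7a*, at 0.42 with adjusted p = 0.486. The lowest were *Sema4a* (−0.38) and *Sema5b* (−0.34). Of 29 tested semaphorin co-receptors and effectors none was called either. *Cfl1*, the actin-severing protein cofilin, was at 518 ± 33.1 TPM (SD, n = 5) in controls and 650 ± 32.1 (n = 4) at day 5 without overlap, a log2 fold change of 0.36 with adjusted p = 0.00437. *Rnd1* was at 0.50 (adjusted p = 0.194), and *Mical3* (−0.25) and *Mical1* (−0.20) were lowest. Of the 4 other Slit and Robo family genes, *Robo4* (0.0046) and *Srgap3* (0.22) were tested, and neither was called.

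**Figure D5:**
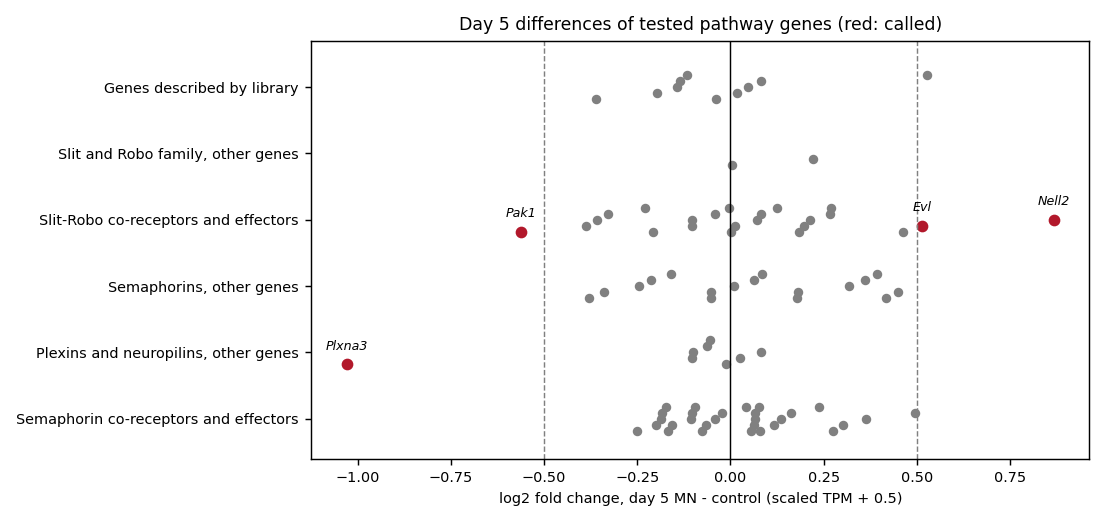
Day 5 log2 fold change against control (horizontal axis) of each tested gene, by list. Each point is a gene, red points with names are the 4 called genes, dashed lines mark ±0.5, and the vertical offset within a list only separates points; the 10 genes of the top row lie between −0.36 and 0.53 with none called.

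Across the 13 libraries, the 10 genes did not vary as a block. The highest Pearson r of log2 levels between a pair of them was 0.69, for *Robo2* and *Srgap1* (0.74 for deviations from the group means), and the lowest was −0.66, for *Robo1* and *Sema3g*. The mean level of podocyte markers had r = 0.84 with *Srgap1*, 0.67 with *Sema3g*, 0.56 with *Robo2* and −0.47 with *Robo1*, whereas *Robo1* had r = 0.63 with mesangial markers. For *Robo2* and *Sema3g*, r across the 13 libraries with glomerular endothelial markers was inverse and larger in size than with podocyte markers, at −0.74 and −0.71. With leukocyte markers r was −0.72 for *Plxna1*. For deviations from the group means, *Sema3g* had r = 0.77 with podocyte, 0.76 with tubule and 0.70 with parietal epithelial markers. *Robo1* had −0.53, −0.72 and −0.78 with the same lists. On these deviations podocyte markers had the larger r in size: 0.71 against −0.58 with endothelial markers for *Robo2*, and 0.77 against −0.60 for *Sema3g*. These values describe 13 libraries that share a treatment structure and a cell mixture. Of all genes tested, the nearest in pattern was *Arhgap44* for *Srgap1* (r = 0.95), *Snrk* for *Plxna1* (0.94) and *Amph* for *Robo2* (0.92). The nearest to *Sema3g* was *Cers6* (0.89). Each of these is the highest r over all genes tested, so a high value is favored by selection. The low genes *Slit2* and *Sema3a* also reached 0.85 and 0.81 with their nearest genes.

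By the GENCODE annotation of GRCm39, *Robo2* spans chr16:73688727-75244270 on the minus strand, and *Robo1* lies on the plus strand of the same chromosome at chr16:72105194-72844378. *Sema3g* spans chr14:30939808-30952309 and *Plxna2* chr1:194300526-194499177, both on the plus strand. *Robo2* and *Srgap1* share exon bases with another annotated gene on the same strand, and *Robo1*, *Slit3*, *Srgap2*, *Plxna1* and *Plxna2* with genes on the opposite strand. Strand cannot separate reads within the shared bases of a same-strand pair. For opposite-strand pairs it could, but whether reads were assigned by strand was not given. Whether the annotation used by the authors held these overlapping genes was not checked.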

How the data were processed

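Per the labels, the authors checked reads with FastQC 0.11.9, trimmed them with Trimmomatic 0.39 and assigned them to transcripts of GRCm39 with kallisto 0.46.2, and the deposited values are TPM per gene symbol and library, without counts. The authors tested counts with DESeq2, and its thresholds were kept here. Deposited TPM were scaled between libraries by the median of ratios over 15772 genes, and log2(scaled TPM + 0.5) was fitted with limma 3.58.1 (R 4.3.3; trended eBayes, two-sided) with 3 group means and all 13 libraries. The 14322 genes that reached 1 TPM in 4 or more libraries were tested, with Benjamini-Hochberg adjustment within each comparison. The fit was tested on simulated data. Tables were described with Python 3.11.15 and pandas 2.3.3. Some results, among them 1 searched promoter motif, are not reported here. Groups came from the labels. The labels do not say whether mice shared a litter or preparation, so p-values measure the spread between these libraries. The 10 genes and all gene lists were chosen with earlier results of these data known. Named were the 10 genes, called genes of the other lists and the 2 highest and 2 lowest of each list at day 5; the remaining genes named in sentences on markers, family shares, similar patterns or adjusted p short of the fold threshold were taken after their values were seen. Alternatives were other pseudocounts, scalings, filters, weights, a tubule covariate, a replicate block and leaving out each library.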

Additional observations from a re-analysis of the deposited data

Results flagged for a closer look

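In 4 of 30 groups (10 genes in 3 groups), 1 library stood apart from the others by its gap relative to the range of the group, where chance alone marks about 1 in 20 groups. *Slit2* was at 2.42 TPM in control 4, above 1.17 to 1.51 in the other controls. *Srgap1* was at 29.7 TPM in day 5 library 1, below 42.7 to 44.0 in the others. *Sema3a* was at 2.45 TPM in day 5 library 3, above 1.02 to 1.26. *Plxna2* was at 27.8 TPM in day 1 library 2, above 17.9 to 19.5. The 4 libraries are different ones.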

How the results depend on the processing

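None of the 10 genes was called in any of the 3 comparisons under any of 26 alternatives. Of 774 log2 fold changes, 725 kept their sign and 49 reversed it, none of them called, and the cause was not tested. With the tubule marker covariate, day 1 values became 0.25 for *Robo1*, −0.20 for *Slit2* and 0.014 for *Plxna1*, and without a change of sign −0.54 for *Srgap1*, −0.37 for *Sema3g* and −0.40 for *Robo2*. Its day 5 minus day 1 values became −0.20 for *Robo1*, 0.042 for *Robo2*, 0.21 for *Slit2*, 0.023 for *Slit3*, −0.18 for *Sema3a*, 0.17 for *Sema3g* and −0.15 for *Plxna1*. At day 5, *Slit2* was −0.0054 with TPM as deposited and −0.028 with quantile normalization. With podocyte marker scaling, chosen after seeing the data, *Robo1* was −0.010 and *Slit2* −0.028 at day 5, and day 5 minus day 1 was −0.026 for *Srgap1*, −0.039 for *Srgap2*, −0.063 for *Plxna1* and −0.048 for *Plxna2*. With array weights, day 5 minus day 1 was −0.062 for *Sema3a* and −0.050 for *Plxna2*.

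Leaving out 1 library, day 1 values ranged from −0.12 to 0.032 for *Robo1* and −0.048 to 0.23 for *Slit2*. Day 5 values ranged from −0.028 to 0.14 for *Robo1*, −0.13 to 0.16 for *Slit2*, −0.016 to 0.21 for *Slit3* and −0.15 to 0.028 for *Plxna2*. Day 5 minus day 1 ranged from −0.21 to 0.095 for *Slit2*, −0.14 to 0.088 for *Slit3*, −0.040 to 0.21 for *Srgap1*, −0.31 to 0.50 for *Sema3a*, −0.087 to 0.12 for *Plxna1* and −0.072 to 0.18 for *Plxna2*.

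Replicate numbers did not pair the libraries: deviations of same-numbered libraries correlated at −0.056 to 0.091. With the replicate block, day 5 was −0.028 for *Robo1*, −0.034 for *Slit2* and 0.00035 for *Plxna2*, 149 genes were called at day 1 and 2 other pathway genes at day 5.

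Over all genes, day 1 calls (13) became 6 without the filter, 7 without trend, 2 with only the compared groups, 8 with podocyte scaling and 0 with the tubule covariate in limma (1227 at unadjusted p under 0.05), and ran from 3 to 218 leaving out 1 library, the highest without control 5. Day 5 calls (460) became 876 by adjusted p alone. Day 5 against day 1 calls (259) became 153 with TPM of at least 1 in every library, 423 with only the compared groups and 126 with the tubule covariate, and ran from 150 to 437 leaving out 1 library. Other pathway calls became 10 at day 5 and 1 against day 1 by adjusted p alone, and ran from 2 to 5 at day 5 leaving out 1 library. *Evl* also lost its call in 6 of 13 other settings and *Pak1* in 1. Without *Cdkn1c* among the markers, the day 5 ratio difference (log2) was −0.30 for *Robo2* and −0.14 for *Sema3g*, against −0.42 and −0.26. *Slit2* and *Sema3a* were below 1 TPM in some libraries, so the filter to every library left no value for them.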
